A study of Mus musculus with 89 samples.

Results

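Purine salvage and nucleoside handling in the mouse jejunum were followed through 7 genes, Enpp3, Nt5e, Slc28a1, Slc28a2, Ada, Pnp and Xdh, along the axis from the crypt to the villus tip and across single cell types. The 7 genes were chosen by name from this pathway, with earlier results of these data known. All 7 were measured in both count tables, among 27538 genes in multi-cell clumps and 23379 genes in single cells. The clumps were small groups of attached epithelial cells, released from the jejunum with EDTA and sorted by DNA content into wells, and each well was sequenced as a unit with MARS-seq 2.0, which counts unique molecular identifiers (UMIs) at the 3′ end of polyadenylated RNA. Single cells came from a separate EDTA dissociation, with a shorter step on ice, a longer warm step, repeated shaking and a finer strainer.

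All animals were male C57BL/6 mice on regular chow, labelled as 3 months old except for 3 single-cell plates of mouse 2, labelled 4 months. No mouse carried a transgene or received a treatment in the labels. Pairs, sorted at a DNA content of 4n, came from mice 1 to 5, and larger clumps, sorted above 4n, from mice 1, 4 and 5. Clumps of mouse 6, sorted above 2n, were kept out of the comparisons. Single cells came from mice 1 to 4, and the labels do not say whether these are the clump mice of the same number, nor whether the plates of both ages of mouse 2 are from 1 animal. They were sorted with labels that name Epcam, CD24, CD45 or CD54, which differ between mice and are missing for some plates. The part of the sort in the cell types that each mouse yielded was not tested.

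Nucleotides released from food and from shed cells are taken apart at the surface of enterocytes, the absorptive cells of the villus. Ectoenzymes cleave nucleotides stepwise to nucleosides, nucleoside transporters carry these into the cell, and intracellular enzymes either salvage the purine base or degrade it to urate. Enterocytes are born in the crypt, move up the villus over a few days and are shed at the tip, so position along the axis also stands for the age of the cell. Enpp3 encodes an ectonucleotide pyrophosphatase, and Nt5e encodes CD73, the ectoenzyme that turns AMP into adenosine. Slc28a1 encodes a sodium-coupled transporter that prefers pyrimidine nucleosides, and Slc28a2 one that prefers purine nucleosides. Ada encodes adenosine deaminase, which makes inosine from adenosine, Pnp encodes purine nucleoside phosphorylase, which makes hypoxanthine from inosine, and Xdh encodes xanthine dehydrogenase, which makes xanthine and urate from hypoxanthine.

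On the mouse genome GRCm38 with GENCODE M21 annotation, all are protein-coding genes. Ada lies on chromosome 2 (163726584 to 163750239, minus strand), Nt5e on chromosome 9 (88327197 to 88372092, plus strand) and Slc28a1 on chromosome 7 (81114799 to 81170416, plus strand). Xdh lies on chromosome 17 (73883895 to 73950196, minus strand) and Enpp3 on chromosome 10 (24772406 to 24842823, minus strand). Slc28a2 lies on chromosome 2 (122426477 to 122461137, plus strand), and 23803 bases further on begins Gm14085 (122484941 to 122528040, plus strand), named Slc28a2b in RefSeq, a near copy that was followed beside the 7 genes. Of the stretches of 66 bases in the last 500 bases of Slc28a2 transcripts, 34.9% were also found in Gm14085 transcripts, so the split of reads between this pair is uncertain. Pnp lies on chromosome 14 (50931082 to 50965237, plus strand) and its annotated span holds the span of Pnp2, with 10.7% of the corresponding stretches shared. Pnp2 was not analysed here.

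The promoters of the genes that were highest at the villus tip are shown because these genes moved together along the axis. Each run covers 250 bases before to 50 bases after the RefSeq start on GRCm38.p6, 5′ to 3′ on the strand of the gene. Capitals mark the letters of the motifs searched. The windows are chr2:163750190-163750489 (Ada, minus strand), chr9:88327359-88327658 (Nt5e, plus strand), chr10:24836146-24836445 (Enpp3, minus strand), chr2:122426185-122426484 (Slc28a2, plus strand) and chr2:122484691-122484990 (Slc28a2b, plus strand).
Ada: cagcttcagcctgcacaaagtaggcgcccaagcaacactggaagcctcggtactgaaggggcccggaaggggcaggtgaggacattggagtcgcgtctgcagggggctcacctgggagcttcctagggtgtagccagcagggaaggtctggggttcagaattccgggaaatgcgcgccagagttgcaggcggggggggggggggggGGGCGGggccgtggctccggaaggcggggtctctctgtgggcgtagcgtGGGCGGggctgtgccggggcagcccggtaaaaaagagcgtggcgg
Nt5e: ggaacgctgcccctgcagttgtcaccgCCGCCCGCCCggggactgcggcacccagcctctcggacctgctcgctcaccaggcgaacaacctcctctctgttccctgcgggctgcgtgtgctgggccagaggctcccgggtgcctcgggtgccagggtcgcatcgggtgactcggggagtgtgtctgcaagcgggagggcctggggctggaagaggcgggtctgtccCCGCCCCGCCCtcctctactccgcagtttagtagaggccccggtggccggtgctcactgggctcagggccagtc
Enpp3: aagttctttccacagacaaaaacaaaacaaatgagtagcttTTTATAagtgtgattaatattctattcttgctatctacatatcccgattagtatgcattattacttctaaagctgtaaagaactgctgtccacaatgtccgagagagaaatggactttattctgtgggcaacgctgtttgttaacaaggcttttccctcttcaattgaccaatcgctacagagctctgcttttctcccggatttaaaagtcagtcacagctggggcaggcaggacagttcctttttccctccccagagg
Slc28a2: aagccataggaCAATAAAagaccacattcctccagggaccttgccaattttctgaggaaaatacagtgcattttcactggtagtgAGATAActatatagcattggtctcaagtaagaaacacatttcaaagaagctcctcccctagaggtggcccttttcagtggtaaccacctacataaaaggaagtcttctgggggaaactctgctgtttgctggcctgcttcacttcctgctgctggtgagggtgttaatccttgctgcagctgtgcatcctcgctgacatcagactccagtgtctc
Slc28a2b: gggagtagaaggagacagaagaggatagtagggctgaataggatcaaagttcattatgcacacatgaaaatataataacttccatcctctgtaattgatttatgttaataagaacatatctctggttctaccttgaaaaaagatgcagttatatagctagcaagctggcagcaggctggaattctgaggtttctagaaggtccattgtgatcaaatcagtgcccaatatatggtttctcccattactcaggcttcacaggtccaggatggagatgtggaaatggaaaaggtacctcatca

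These 5 promoters did not share a base composition. GC content was 68% for Ada and 71% for Nt5e, above the upper quartile of 61.7% over 27025 mouse promoters of this length, whereas it was 40.7% for Enpp3, 46.7% for Slc28a2 and 40% for Slc28a2b. The letters searched on both strands were TATAAA for the TATA box, held by 14.2% of all promoters, GGGCGG for the GC box, held by 35.9%, and TTTATNG for the CDX2 motif, held by 11.3%. HNF4A was searched as CAAAGTCCA, held by 0.477%, AP-1 as TGANTCA, held by 7.93%, and the factors of the GATA family as AGATAA, held by 11.4%. Ada held 2 GC boxes and Nt5e held 4, overlapping in pairs. Slc28a2 held a CDX2 and a GATA match, Enpp3 held a TATA box match on the opposite strand, and Slc28a2b held none. No motif of the 6 was held by all 5 promoters, which says only that these letters are not in these windows. Promoters of Xdh and Pnp2 were not used here.

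Plates held between 94810 and 4153056 UMIs for clumps (median 318941) and between 109338 and 2348338 for single cells (median 868320). After filters, 5883 clumps had a position. Each was placed in the crypt (3541 clumps), the mid-villus (1514) or the tip (828) by 62 enterocyte landmark genes that the study had chosen on another data set. Ada, Nt5e, Slc28a2 and Enpp3 stood in that landmark list and were taken out, so that none of the 7 genes placed a clump. Their place in the list makes the direction of these 4 genes no independent evidence. UMIs were summed per mouse and zone and are given as CPM, the counts scaled to a common total of UMIs per sum. Tip sums held 72119 to 854178 UMIs and crypt sums 371986 to 19014253. Mouse 4 gave only 25 tip clumps. Correlations between mice were 0.828 to 0.973 in the crypt and 0.630 to 0.906 at the tip.

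All 14 enterocyte markers were detected in the clumps, with summed levels of 3354 to 14806 CPM in the crypt and 53380 to 93544 CPM at the tip. Summed goblet cell markers moved in the same direction, from 3242 to 6522 CPM in the crypt to 6083 to 25679 CPM at the tip. Of 8 goblet cell markers tested, 5 were called higher at the tip, 1 lower (Agr2) and 2 were not called. Summed immune markers were at 0 to 52.1 CPM at the tip, where Cd3e, Cd3g, Cd3d, Trdc and Cd52 were at 0. Summed Paneth cell markers moved the other way, from 94.2 to 20192 CPM in the crypt to 129 to 1539 CPM at the tip, and 12 of 12 were called lower at the tip (median log2 difference -3.87). The part of goblet and Paneth cells in the zone differences was not tested, and in these sums fewer cells of a type and less RNA per cell cannot be told apart.

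Villus tip and crypt clumps were compared first, to ask where along the axis each gene is expressed. All 7 genes were higher at the tip by edgeR's quasi-likelihood test, with Nt5e, Ada, Enpp3 and Slc28a2 higher by over 6 on the log2 scale and Slc28a1, Xdh and Pnp by smaller amounts. Across all 7395 genes tested, 53.4% were called in either direction and 19.8% were called higher at the tip, and the median gene lay at -0.29. In the mid-villus 5 of the 7 were called higher than in the crypt, while Nt5e and Slc28a2 did not pass the test, and which genes passed depended on the processing.

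**Figure D1:**
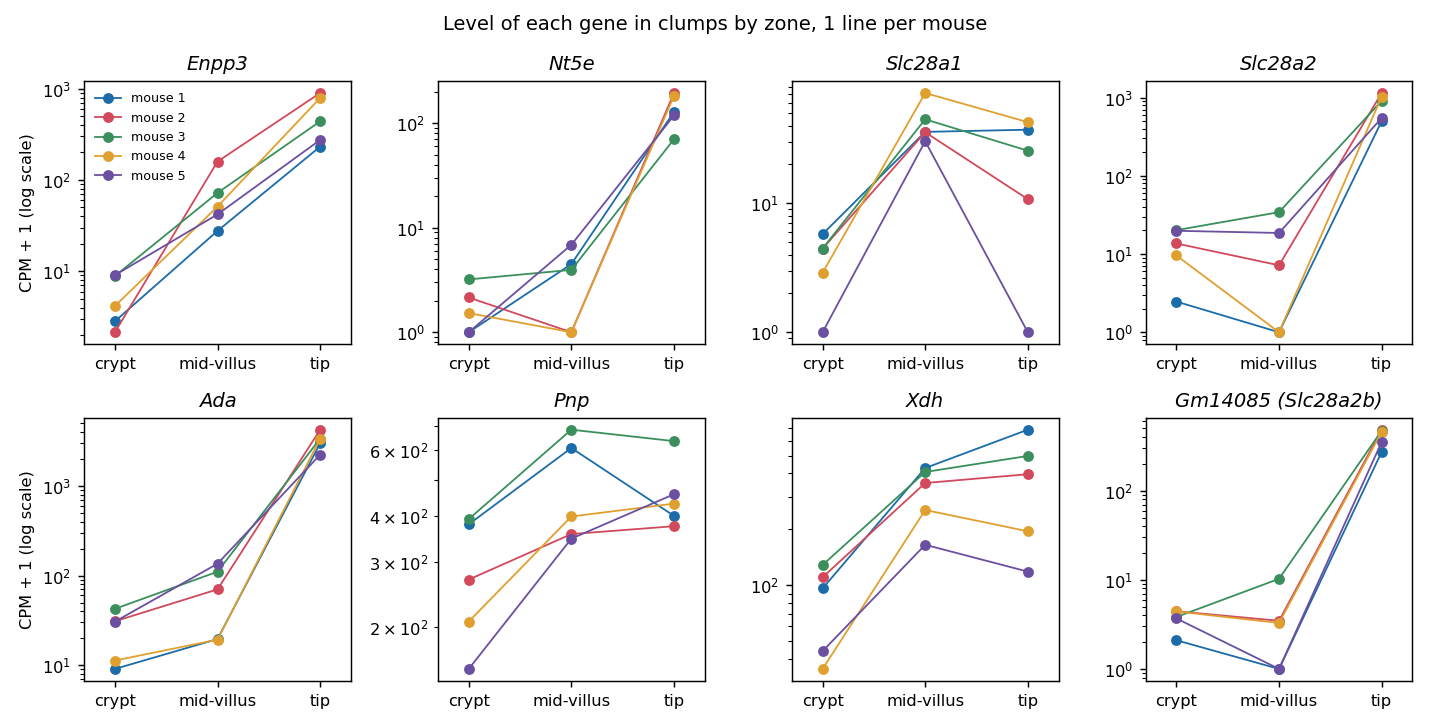
Level of each gene in clumps by zone, as CPM + 1 on a log axis, with 1 line per mouse for mice 1 to 5. Ada, Nt5e, Slc28a2, Enpp3 and Gm14085 sit at their highest at the tip in every mouse, whereas Slc28a1 does not rise from mid-villus to tip in 4 of 5 mice.

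Among the surface enzymes, Enpp3 rose stepwise. In mice 1 to 5 it stood at 1.83, 1.15, 7.86, 3.16 and 8.06 CPM in the crypt, at 26.7, 158, 71.2, 50.2 and 41.0 CPM in the mid-villus, and at 231, 896, 438, 790 and 274 CPM at the tip. The 3 zones did not overlap. The log2 difference from crypt to mid-villus was 4.15 (adjusted p = 1.54e-05) and from mid-villus to tip 3.08 (adjusted p = 0.000618), which gave 7.23 ± 0.65 (SE) from crypt to tip (adjusted p = 6.5e-08).

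Nt5e was near the limit of detection below the tip. Crypt levels were 0, 1.15, 2.2, 0.53 and 0 CPM, mid-villus levels 3.48, 0, 2.95, 0 and 5.86 CPM, and tip levels 127, 193, 69.1, 180 and 117 CPM. The lowest tip value lay above every value of the other zones. The tip exceeded the mid-villus by 6.13 (adjusted p = 1.61e-06) and the crypt by 7.55 ± 0.59 on the log2 scale (adjusted p = 2e-08), and the difference between mid-villus and crypt was 1.42 (adjusted p = 0.165). With zones set by Apoa4, Apob and Clca4a alone, the mid-villus exceeded the crypt by 3.54 (adjusted p = 0.000841).

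The transporters took different positions. Slc28a1 had crypt levels of 4.76, 3.45, 3.46, 1.89 and 0 CPM, mid-villus levels of 34.8, 34.6, 43.8, 70.7 and 29.3 CPM, and tip levels of 36.2, 9.76, 24.6, 41.6 and 0 CPM. Mid-villus and crypt did not overlap, and tip and mid-villus did. The gene was higher in the mid-villus than in the crypt by 3.84 (adjusted p = 1.38e-06), and the tip differed from the mid-villus by -0.78 (adjusted p = 0.234). With zones set by Apoa4, Apob and Clca4a that difference turned to 0.51 (adjusted p = 0.475). From crypt to tip the difference was 3.06 ± 0.48 (adjusted p = 2.2e-05), although mouse 5 had no UMI in either zone.

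Slc28a2 was instead a tip gene. Its levels were 1.47, 12.6, 19.2, 8.57 and 18.8 CPM in the crypt, 0, 6.17, 33.3, 0 and 17.6 CPM in the mid-villus, and 498, 1142, 906, 1026 and 547 CPM at the tip. Crypt and mid-villus values overlapped and all tip values stood far above both. The tip exceeded the mid-villus by 6.28 (adjusted p = 3.73e-05) and the crypt by 6.39 ± 0.78 (adjusted p = 1.37e-06), while mid-villus and crypt differed by 0.11 (adjusted p = 0.927), or by 2.23 (adjusted p = 0.0111) with zones set by the 3 genes Apoa4, Apob and Clca4a. Its near copy Gm14085 was read out at 1.10 to 3.45 CPM in the crypt, 0 to 9.27 CPM in the mid-villus, and 272, 483, 471, 458 and 352 CPM at the tip, a difference of 7.40 ± 0.51 from crypt to tip (adjusted p = 5.78e-09).

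The 3 intracellular enzymes act one after another, and their profiles differed. Ada stood at 8.06, 29.9, 41.5, 10.3 and 29.6 CPM in the crypt, 18.6, 69.2, 110, 18.2 and 135 CPM in the mid-villus, and 2997, 4262, 3381, 3369 and 2240 CPM at the tip. It was higher in the mid-villus than in the crypt in every mouse, by 1.62 (adjusted p = 0.0294), a call that was lost in pairs alone (adjusted p = 0.168), with clumps thinned to 500 UMIs (1.09, adjusted p = 0.113) and without mouse 2, 3 or 5 (0.0585 to 0.0739). The step from mid-villus to tip was 5.70 (adjusted p = 1.11e-05), and the tip exceeded the crypt by 7.32 ± 0.69 (adjusted p = 1.02e-07).

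Xdh rose early and then levelled off. Its crypt levels were 94.9, 109, 127, 34.3 and 43.0 CPM, its mid-villus levels 427, 354, 407, 253 and 164 CPM, and its tip levels 688, 395, 496, 194 and 117 CPM. Mid-villus values lay above all crypt values, and tip values overlapped both. The difference was 1.98 from crypt to mid-villus (adjusted p = 0.000443), 0.45 from mid-villus to tip (adjusted p = 0.484) and 2.44 ± 0.41 from crypt to tip (adjusted p = 4.75e-05).

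Pnp had the smallest crypt to tip difference of the 7 genes. It stood at 378, 268, 390, 206 and 153 CPM in the crypt, 608, 356, 681, 397 and 346 CPM in the mid-villus, and 398, 373, 635, 430 and 456 CPM at the tip. The zones overlapped, but every mouse was higher at the tip than in its own crypt. The difference was 0.78 from crypt to mid-villus (adjusted p = 0.0288), 0.12 from mid-villus to tip (adjusted p = 0.83) and 0.90 ± 0.28 from crypt to tip (adjusted p = 0.00997). In pairs alone the crypt to tip difference was 0.62 (adjusted p = 0.403). The call from crypt to mid-villus was lost in pairs alone (0.50, adjusted p = 0.574), with zones by 3 genes (adjusted p = 0.0777), with DESeq2's size factors (0.0584) and without mouse 2 or 3 (0.0554 and 0.0596).

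Between mid-villus and crypt, 5 of the 7 genes were called higher, beside 13.9% of all genes tested. With zones by Apoa4, Apob and Clca4a, Nt5e (3.54, adjusted p = 0.000841) and Slc28a2 (2.23, adjusted p = 0.0111) were called as well, as was Gm14085 (2.27, adjusted p = 0.00753), and Pnp was not, and the calls of Ada and Pnp were lost under the settings given above. The Nt5e difference that missed the threshold (1.42) was close in size to that of Ada (1.62), and the difference between genes was not tested. Between tip and mid-villus, 4 of 7 were called higher, beside 5.84% of all genes. In that comparison 976 genes were called in all (13.2%), and 2072 with mouse as a block. The zones of mice did not overlap from crypt to tip for Ada, Nt5e, Slc28a2 and Enpp3, that is 4 of 7, beside 7.78% of all genes whose tip values all lay above the crypt values. The 4 genes in the last 2 counts, tip against mid-villus and tip without overlap, are those taken out of the landmark list, so these shares are no independent evidence. The comparisons of tip and of mid-villus with the crypt share the crypt sums.

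Detection per clump followed the summed levels. With each clump thinned to 500 UMIs, 56.4% of 828 tip clumps held an Ada UMI (95% exact binomial interval 52.9% to 59.8%), against 4.95% of mid-villus and 1.86% of crypt clumps. Before thinning the tip share was 71.6%. Slc28a2 was found in 29.3%, 1.25% and 0.706% of thinned tip, mid-villus and crypt clumps, Enpp3 in 20.8%, 4.10% and 0.339%, and Nt5e in 5.92%, 0.264% and 0.0565%. Xdh was found in 18.5% of tip and 14.5% of mid-villus clumps against 3.45% in the crypt. For Pnp these shares were 19.2%, 20.8% and 10.8%, and for Slc28a1 0.966%, 1.59% and 0.198%. The intervals cover counting error only.

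For a finer view, clumps were ranked by the share of tip landmarks in the summed, scaled levels of tip and crypt landmarks, and cut into 10 bins of equal size, where bin 1 is the crypt end. This axis is a rank of the clumps sampled, not a distance in the tissue. Crypt clumps were 565 to 587 of the clumps in each of bins 1 to 5, 462 of 588 in bin 6 and 167 of 589 in bin 7. Mid-villus clumps were 500 of 588 in bin 8, and tip clumps 468 of 588 in bin 10. The median Ada level over mice was 13.6 CPM in bin 5, 68.2 in bin 7, 107 in bin 8, 891 in bin 9 and 4202 in bin 10. The median Nt5e level was 0 in bins 1 to 6, which held 1 to 4 UMIs each over all mice, and reached 15.1 CPM in bin 9 and 95.9 CPM in bin 10. Median Slc28a2 stepped from 43.8 to 226 and 988 CPM over the last 3 bins, and Enpp3 from 45.8 to 257 and 528 CPM. Xdh climbed through nearly all bins, from 15.6 CPM in bin 1 to 126 in bin 5 and 488 in bin 9, and Pnp went from 161 to 401 CPM between bins 1 and 9. Slc28a1 was at 35.8 CPM in bin 7 and at 15.6 CPM in bin 10. The upper bins of mouse 4 were thin, with 5 clumps and 5583 UMIs in its smallest bin.

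**Figure D2:**
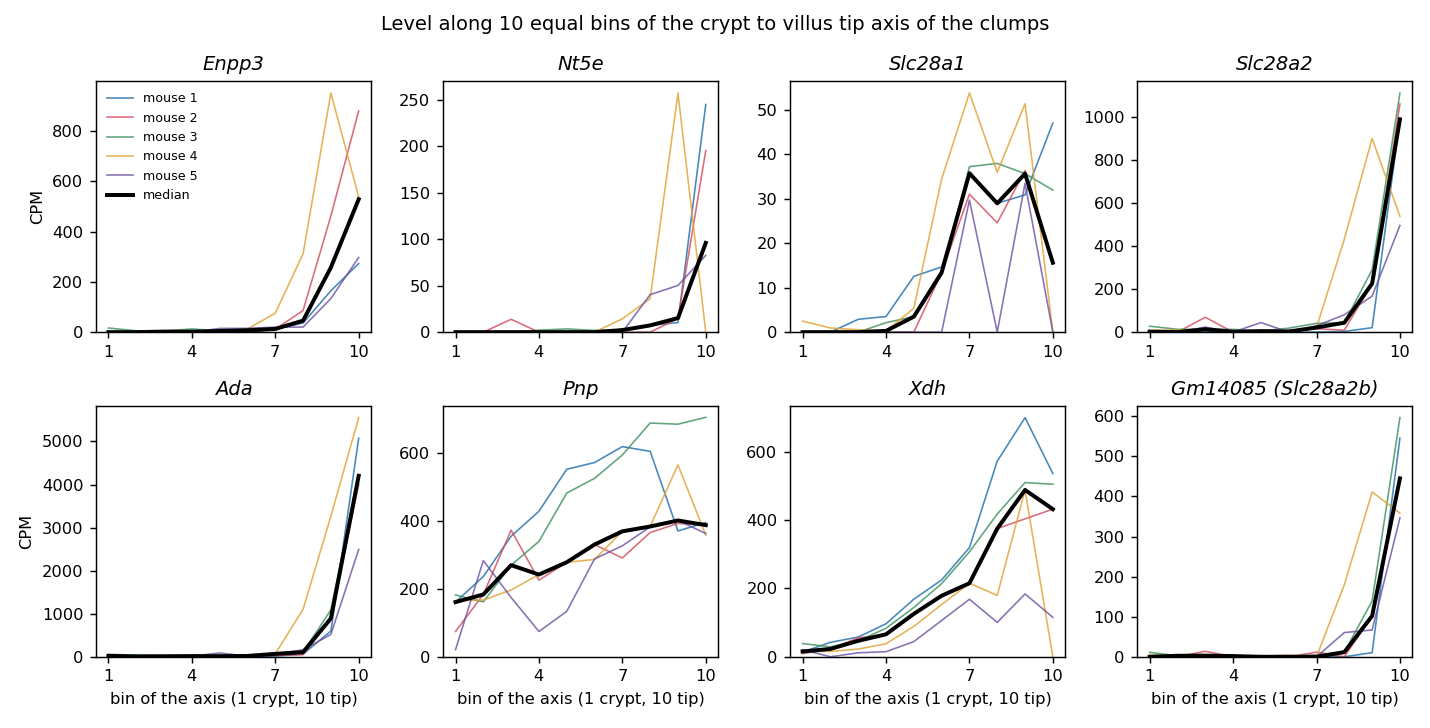
CPM of each gene in 10 equal bins of the axis (bin 1 crypt, bin 10 tip), with 1 thin line per mouse and the median over 5 mice in black. The median of Ada, Nt5e, Slc28a2, Enpp3 and Gm14085 is highest in bin 10, whereas the median of Slc28a1, Xdh and Pnp is past its highest value there.

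The center of mass, the mean bin position weighted by CPM and given as a percentage of this ranked axis from crypt to tip, put the genes in order. Its values are ranks among the clumps, not heights on the villus. It was 90.5% ± 1.65 (SD, n = 5) for Ada, 90.4% ± 3.00 for Gm14085, 88.6% ± 4.13 for Nt5e, 88.1% ± 3.93 for Slc28a2 and 87.6% ± 2.04 for Enpp3. The means of these neighbours lay within their spread of each other. Compared mouse by mouse, Ada lay nearer the tip than Enpp3 in 5 of 5 mice, as did Gm14085 against Enpp3 and against Nt5e, while the other pairs among these 5 genes kept 1 order in at most 4 of 5. Slc28a1 followed at 74.2% ± 3.04, Xdh at 71.4% ± 1.86 and Pnp at 59.5% ± 2.77. Each of Ada, Nt5e, Slc28a2 and Enpp3 lay nearer the tip than Slc28a1, Xdh and Pnp in 5 of 5 mice, and Slc28a1 nearer than Xdh and Xdh nearer than Pnp in 5 of 5. Thus among the 3 intracellular enzymes Ada lay nearest the tip, Xdh lower and Pnp lowest, in 5 of 5 mice.

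**Figure D3:**
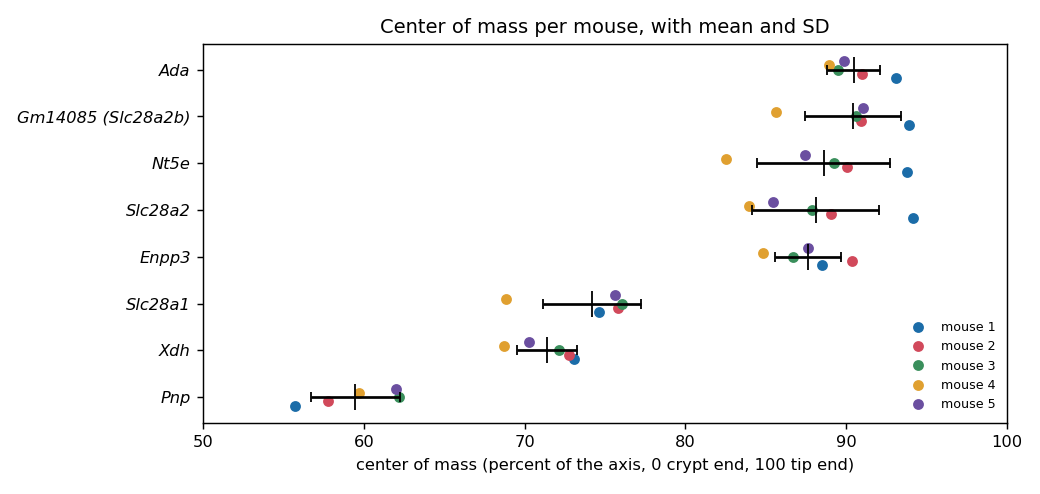
Center of mass of each gene as a percentage of the axis of ranked clumps (0 crypt end, 100 tip end), with 1 point per mouse and the mean ± SD of 5 mice in black. The upper 5 genes average 87.6% to 90.5%, apart from Slc28a1 at 74.2%, Xdh at 71.4% and Pnp at 59.5%, and mouse 4 has the lowest value in 7 of the 8 genes.

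Genes whose pattern was most like each of the 7 were sought over 50 sums of mouse and bin among 5029 genes, with landmarks left out. The sums share mice and depth, so Pearson's r is a description. Gm14085 was most like Slc28a2 (r = 0.940) and Nt5e (0.853), and Clca4c-ps was most like Enpp3 (0.950) and Ada (0.927). Cyp2c55 was most like Slc28a1 (0.917), followed by Slc5a4b (0.904) and Slc13a2 (0.891), the last a dicarboxylate transporter. Srxn1 was most like Xdh (0.933), followed by Ehd1 (0.926) and Sec14l2 (0.920), and Cideb, a lipid droplet protein, was most like Pnp (0.893), followed by Ogdh (0.868) and Anxa4 (0.864). Among the 7 themselves, r was 0.930 between Ada and Enpp3 and 0.922 between Ada and Slc28a2, against 0.453 between Ada and Xdh and 0.403 between Ada and Pnp.

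Single cells gave a separate view. Of 5199 cells kept, 2456 were enterocyte-like, a cluster in which 13 of its leading genes were enterocyte markers, and 1215 of these were placed at the tip by the same landmarks. Ada was at 1274, 1462, 1574 and 2243 CPM in tip cells of mice 1 to 4, Slc28a2 at 274, 537, 391 and 838 CPM, Enpp3 at 394, 380, 389 and 661 CPM, and Nt5e at 44.9, 114, 34.6 and 214 CPM. Against the lower enterocyte-like cells of the same mice, Nt5e was higher by 7.65 (adjusted p = 7.4e-05), Slc28a2 by 5.92 (9.73e-06), Ada by 4.60 (0.000473) and Enpp3 by 2.71 (0.000637) in 4 of 4 mice, with no overlap. That is 4 of 7 genes called higher, beside 18.6% of 4106 genes tested, and 4 of 7 without overlap, beside 5.21%. These 4 are the genes taken out of the landmark list, so their direction here is no independent evidence either.

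Xdh, Slc28a1 and Pnp were not called between tip and lower cells. Mean Xdh was 299 CPM in tip and 263 CPM in lower cells, and the tip CPM was higher in 2 and lower in 2 of 4 mice. The fit gave a log2 difference of 0.77 (adjusted p = 0.0886) that passed with mouse as a block (adjusted p = 0.000708), without the filter on low counts (0.0219) and without mouse 1 (0.00634). Mean Slc28a1 was 22.8 and 27.8 CPM (adjusted p = 0.716) and mean Pnp 154 and 209 CPM (adjusted p = 0.808). Pnp CPM was lower in tip cells in 4 of 4 mice while the fitted difference was 0.10. For Xdh and Pnp alike the fit rescales each sum: the median of all genes tested lay at -0.41 in plain CPM and at 0.04 in the fit. Split into 3 places, Xdh went from 61.2 to 105 CPM in crypt-placed cells to 230 to 389 in mid-villus-placed cells and 250 to 374 in tip-placed cells, and Slc28a1 was at 19.9, 40.8, 34.9 and 45.2 CPM in mid-villus-placed cells against 13.9, 24.9, 25.9 and 26.4 CPM in tip-placed cells.

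The other cell types were compared with all enterocyte-like cells of every place. Clusters were named goblet-like (211 cells, led by Zg16, Tff3 and Muc2), enteroendocrine-like (249 cells, led by Sct, Chgb and Chga), tuft-like (186 cells, with Trpm5 and Dclk1) and immune-like (1570 cells, with Gzma, Cd3g and Cd8a). Mouse 2 gave 219 of the enteroendocrine-like and 157 of the tuft-like cells, mouse 4 had 4 tuft-like cells and did not enter that comparison, and mouse 1 gave no immune-like cells. A cluster of 426 cells led by Igha and class II genes stayed unnamed. Slc28a1 was too low to be tested between types. All 6 genes tested were lower in goblet-like cells (beside 13% of 3096 genes) and in tuft-like cells (beside 14.7%), and 5 of 6 were lower in enteroendocrine-like (beside 19.6%) and in immune-like cells (beside 25.1%). The exception in both was Nt5e. The enterocyte-like reference included tip cells, so cell type and place along the axis were not separated in these calls. Of 8 Paneth cell markers tested, 7 were called higher in goblet-like, 7 in immune-like, 5 in enteroendocrine-like and 3 in tuft-like cells. All 3 red blood cell markers tested were called higher in tuft-like and in immune-like cells. Their part in these calls was not tested.

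**Figure D4:**
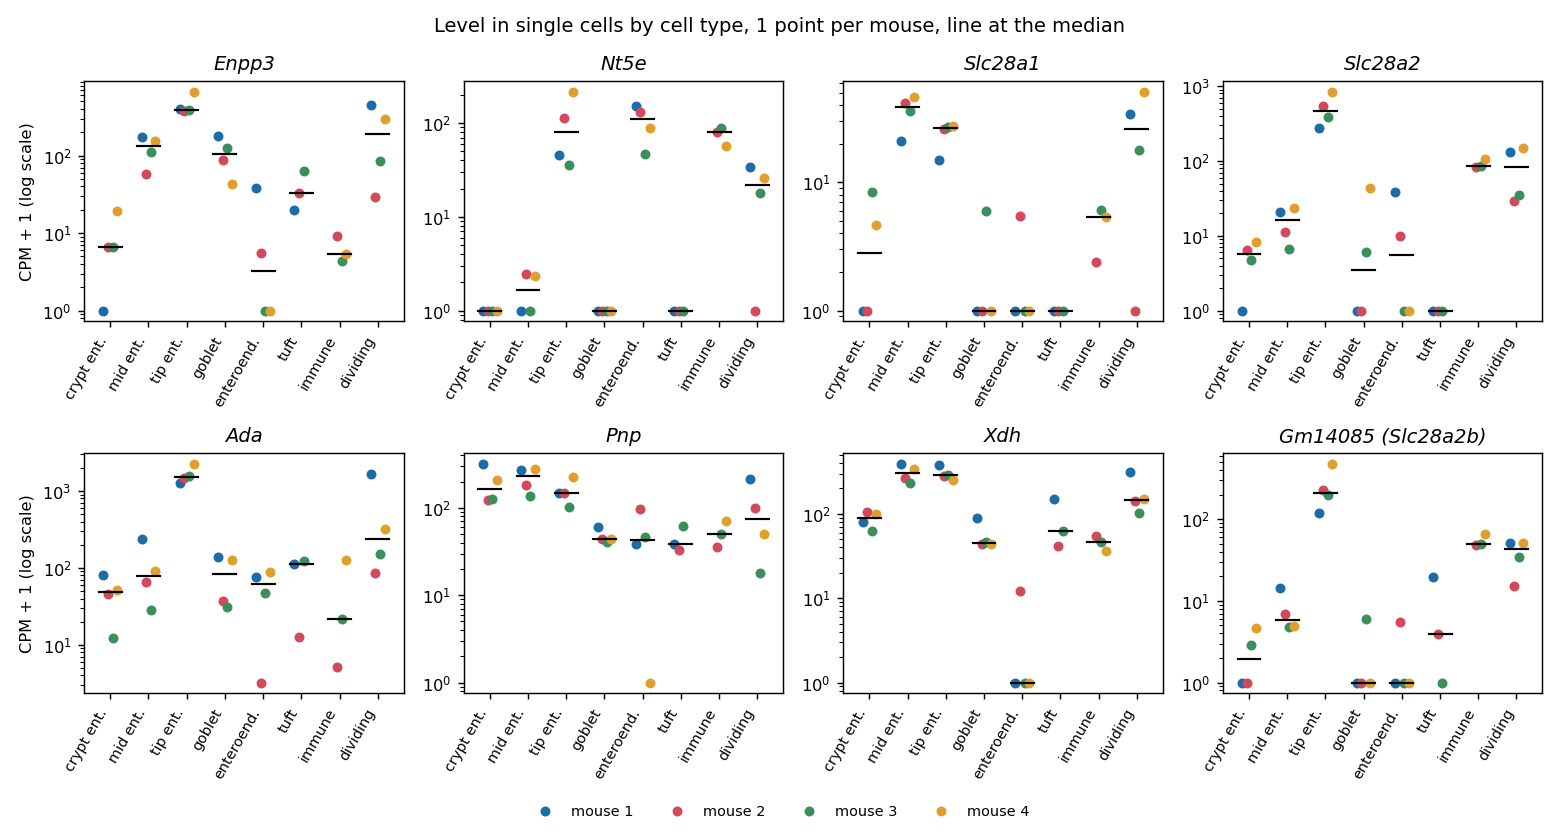
Level of each gene in single cells by cell type, as CPM + 1 on a log axis, with 1 point per mouse and a line at the median, where ent. marks enterocyte-like cells by place and dividing marks the histone-led cluster. Nt5e lies between 45.7 and 151 CPM in enteroendocrine-like and between 56.7 and 86.8 CPM in immune-like cells and is at 0 in goblet-like and tuft-like cells.

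Nt5e was read out at similar levels in several types and at 0 in others. In enteroendocrine-like cells, which secrete gut hormones, it stood at 151, 132, 45.7 and 88.5 CPM in mice 1 to 4, from 4, 59, 1 and 1 UMIs, and in immune-like cells of mice 2 to 4 at 78.8, 86.8 and 56.7 CPM. These values overlapped those of the tip enterocyte-like cells. All enterocyte-like cells together stood at 38.6, 45.5, 7.76 and 96.6 CPM in mice 1 to 4. The log2 difference from all enterocyte-like cells was 0.04 for enteroendocrine-like (adjusted p = 0.972) and -0.30 for immune-like cells (adjusted p = 0.662), and the direction of both turned with the processing. The fit rescales each sum, so these differences need not follow the plain CPM. No Nt5e UMI was found in goblet-like or tuft-like cells, whose levels were at least 7.48-fold and at least 6.27-fold lower than in enterocyte-like cells against a floor of 3 counts over the group. These bounds rest on single mice: for goblet-like cells the bound was 4.55-fold without mouse 4 and 4.99-fold without mouse 2, and for tuft-like cells 4.01-fold without mouse 4 and 1.07-fold without mouse 2. They also rest on the tip cells, which held 346 of the 348 Nt5e UMIs of enterocyte-like cells. Lower enterocyte-like cells averaged 0.53 CPM, below the floors of 6.12 CPM for goblet-like and 7.30 CPM for tuft-like cells. In Nt5e these 2 types therefore cannot be told apart from lower enterocyte-like cells.

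Per cell, thinned to 500 UMIs, Nt5e was found in 5.81% of 241 enteroendocrine-like cells (exact interval 3.21% to 9.55%), 3.74% of 1258 immune-like cells (2.76% to 4.94%) and 5.46% of 1209 tip enterocyte-like cells. In 205 goblet-like cells the count was 0, which allows a share of up to 1.46% by the limit of 3 counts of the total and 1.78% by the upper end of the exact interval. In 179 tuft-like cells it was 0, which allows up to 1.68% and 2.04%. These limits are of cells with a UMI at this depth, not of cells that express the gene. Before thinning, the shares were 15.7%, 6.82% and 12.0%, and 0 in goblet-like and tuft-like cells, at median depths of 1825, 836, 2859, 1991 and 2206.5 UMIs per cell in the same order of types. Of the 249 enteroendocrine-like cells, 219 came from mouse 2, and the intervals cover only the counting of cells pooled over mice.

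Slc28a2 was shared between tip enterocyte-like and immune-like cells. Immune-like cells had 82.9, 85.1 and 105 CPM in mice 2 to 4, below all tip enterocyte-like values, and goblet-like cells had 0, 0, 4.99 and 42.5 CPM, the last from 1 UMI. The immune-like level was lower than in all enterocyte-like cells, with a log2 difference of -2.45 (adjusted p = 0.0012). Per thinned cell it was found in 3.97% of immune-like cells (2.96% to 5.21%) and 17.0% of tip enterocyte-like cells, against 1 of 205 goblet-like cells and 0 of 179 tuft-like cells. Gm14085 showed 47.0, 49.4 and 65.4 CPM in immune-like cells. Tip enterocyte-like cells of mice 2 and 3 held 823 and 728 Ada beside 302 and 181 Slc28a2 UMIs, and immune-like cells of the same mice held 3 and 12 Ada beside 60 and 50 Slc28a2 UMIs. In mouse 4 the immune-like cells held 29 Ada and 24 Slc28a2 UMIs. The part of free RNA in these values was not tested.

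Ada was higher in tip enterocyte-like cells than in immune-like, enteroendocrine-like, goblet-like and tuft-like cells of every mouse that had them. It was found in 37.1% of thinned tip enterocyte-like cells (34.4% to 39.9%) against 1.19% of immune-like, 1.24% of enteroendocrine-like, 4.39% of goblet-like and 1.12% of tuft-like cells, and in 8.51% of cells of the histone-led cluster described below, where its level in mouse 1 was above that of the tip enterocyte-like cells of that mouse (1671 against 1274 CPM). Its log2 difference from enterocyte-like cells was -6.71 ± 1.34 in enteroendocrine-like, -5.41 ± 1.2 in immune-like, -5.17 ± 1.30 in tuft-like and -4.29 ± 1.04 in goblet-like cells (adjusted p = 0.000166, 0.000284, 0.00244 and 0.00201).

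Enpp3 kept a level in goblet-like cells, the mucus-secreting cells, at 176, 85.4, 125 and 42.5 CPM against 362, 178, 145 and 360 CPM in enterocyte-like cells. The ranges overlapped in CPM between mice, and the goblet-like level was lower in 4 of 4 mice, with a log2 difference of -1.97 ± 0.68 (adjusted p = 0.0358). This call was lost with DESeq2 (adjusted p = 0.171), with its size factors (0.105) and without mouse 2, 3 or 4 (0.0645 to 0.189). Lower enterocyte-like cells alone had Enpp3 at 166, 46.1, 74.4 and 116 CPM in mice 1 to 4, and goblet-like cells were not tested against them. In immune-like cells Enpp3 was at 8.29, 3.40 and 4.36 CPM, a difference of -6.64 ± 0.97 (adjusted p = 9.72e-07), and in enteroendocrine-like cells at 37.7, 4.47, 0 and 0 CPM.

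The enzymes further down the path were lower in goblet-like, immune-like and tuft-like than in enterocyte-like cells. Xdh was at 87.8, 42.7, 44.9 and 42.5 CPM in goblet-like cells and 53.9, 46.0 and 34.9 CPM in immune-like cells, against 374, 249, 200 and 264 CPM in enterocyte-like cells. In enteroendocrine-like cells it was found only in mouse 2, at 11.2 CPM. Pnp was at 39.9 to 58.5 CPM in goblet-like and 34.6 to 69.8 CPM in immune-like cells, against 124 to 243 CPM in enterocyte-like cells, with log2 differences of -2.56 ± 0.63 (adjusted p = 0.00245) and -2.86 ± 0.65 (adjusted p = 0.000335). In tuft-like cells Xdh and Pnp were lower, with log2 differences of -3.18 (adjusted p = 0.00148) and -3.45 (adjusted p = 0.00105), and both calls were lost without mouse 2 (0.0888 and 0.0640).

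A small cluster of 101 cells was led by histone genes and held markers of division (Top2a, Stmn1, Tubb5 and Hmgb2). Its cells mixed types, since 39 scored highest for immune and 38 for enterocyte markers, and its summed immune markers ranged from 215 to 16022 CPM over mice. Ada was at 1671, 84.5, 152 and 323 CPM there in mice 1 to 4, and mouse 1, which had no immune-like cells, also had its highest Enpp3 level (447 CPM). Of the 6 genes tested, only Slc28a2 was called lower than in enterocyte-like cells (-2.42 ± 0.64, adjusted p = 0.00718, beside 9.92% of all genes), and all 6 were without mouse 1 or with mouse as a block (adjusted p among the 5 added from 0.000131 for Ada to 0.00966 for Nt5e without mouse 1, and from 0.000281 for Ada to 0.0184 for Nt5e with the block). The Slc28a2 call was lost without mouse 2 (-2.48, adjusted p = 0.114). Nt5e, Xdh and Pnp were called lower as well without the filter on low counts (adjusted p = 0.0138, 0.0473 and 0.0387) and without the 4-month plates, an alternative chosen after seeing the data (0.0418, 0.0351 and 0.0392). Naming cells by their highest marker sum put only 3 of these 101 cells in a stem and dividing group, beside 9 cells of the enterocyte-like and 2 of the unnamed cluster. That small group is not this cluster, so its values are not read here. Xdh in the cluster was at 314, 141, 101 and 149 CPM and Pnp at 215, 98.5, 16.9 and 49.7 CPM in mice 1 to 4, so that Pnp in mouse 1 was above the 164 CPM of the enterocyte-like cells of that mouse.

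The rest of the pathway was read from lists of related genes in the same crypt to tip comparison, where the median over all 7395 genes tested was -0.29 and 19.8% were called higher and 33.6% lower. In a list of ectonucleotidases and phosphatases that also held the peptidase Dpp4, 4 of 7 tested rose and none fell (median 1.64). Dpp4 is 1 of these 4, and another, Alpi, is also among the 14 enterocyte markers, of which 11 were called higher at the tip. Entpd8, an ectonucleoside triphosphate hydrolase, rose by 3.21 ± 0.35 (adjusted p = 4.37e-07), and the brush border alkaline phosphatase Alpi by 3.14 ± 0.35 (adjusted p = 4.22e-07), from a mean of 168 to 1328 CPM. Dpp4, a peptidase that binds adenosine deaminase in humans, rose by 1.75 ± 0.32 (adjusted p = 0.000117). Among nucleoside and urate transporters, 4 of 5 tested rose (median 1.73), including Slc17a4 by 2.39 ± 0.39 (adjusted p = 3.92e-05) and the urate exporter Abcg2 by 1.73 ± 0.33 (adjusted p = 0.000196). Among receptors for adenosine and nucleotides, 2 of 3 tested rose, with the nucleotide receptor P2ry2 higher by 3.39 ± 0.44 (adjusted p = 2.34e-06).

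Other intracellular enzymes of purine metabolism moved in both directions. In salvage and breakdown, 2 of 14 tested rose, 6 fell and 6 were not called (median -0.76). Gda, the guanine deaminase that feeds xanthine to Xdh, rose by 2.42 ± 0.53 (adjusted p = 0.00067), while Ahcy, which releases adenosine from S-adenosylhomocysteine, fell by 2.26 on the log2 scale (adjusted p = 0.000645). Nt5m averaged 17.1 CPM in the crypt and 0.702 CPM at the tip (adjusted p = 0.000477). In de novo purine synthesis, 5 of 6 tested fell and 1 rose (median -3.28, or -3.27 with Prps2 at its bound). Impdh2, which commits IMP to guanine nucleotides, averaged 72.5 CPM in the crypt and 6.26 CPM at the tip and fell by 3.71 on the log2 scale (adjusted p = 0.000386). Gmps averaged 23.8 and 0.702 CPM, and Prps2, without a UMI at the tip, was at least 11.9-fold lower there against a floor of 3 counts over the group (5.72-fold without mouse 3). In pyrimidine salvage and breakdown, 2 of 11 rose and 5 fell (median -0.81), with Dut averaging 38.3 CPM in the crypt and 0.722 CPM at the tip, Tk1 31.4 and 3.50 CPM, and Umps 14.9 and 0.937 CPM. Summed stem and dividing cell markers were 892 to 3761 CPM in the crypt and 77.0 to 901 CPM at the tip, with 9 of 10 tested called lower at the tip, beside the Paneth cell markers given above. The part of either in these falls was not tested.

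**Figure D5:**
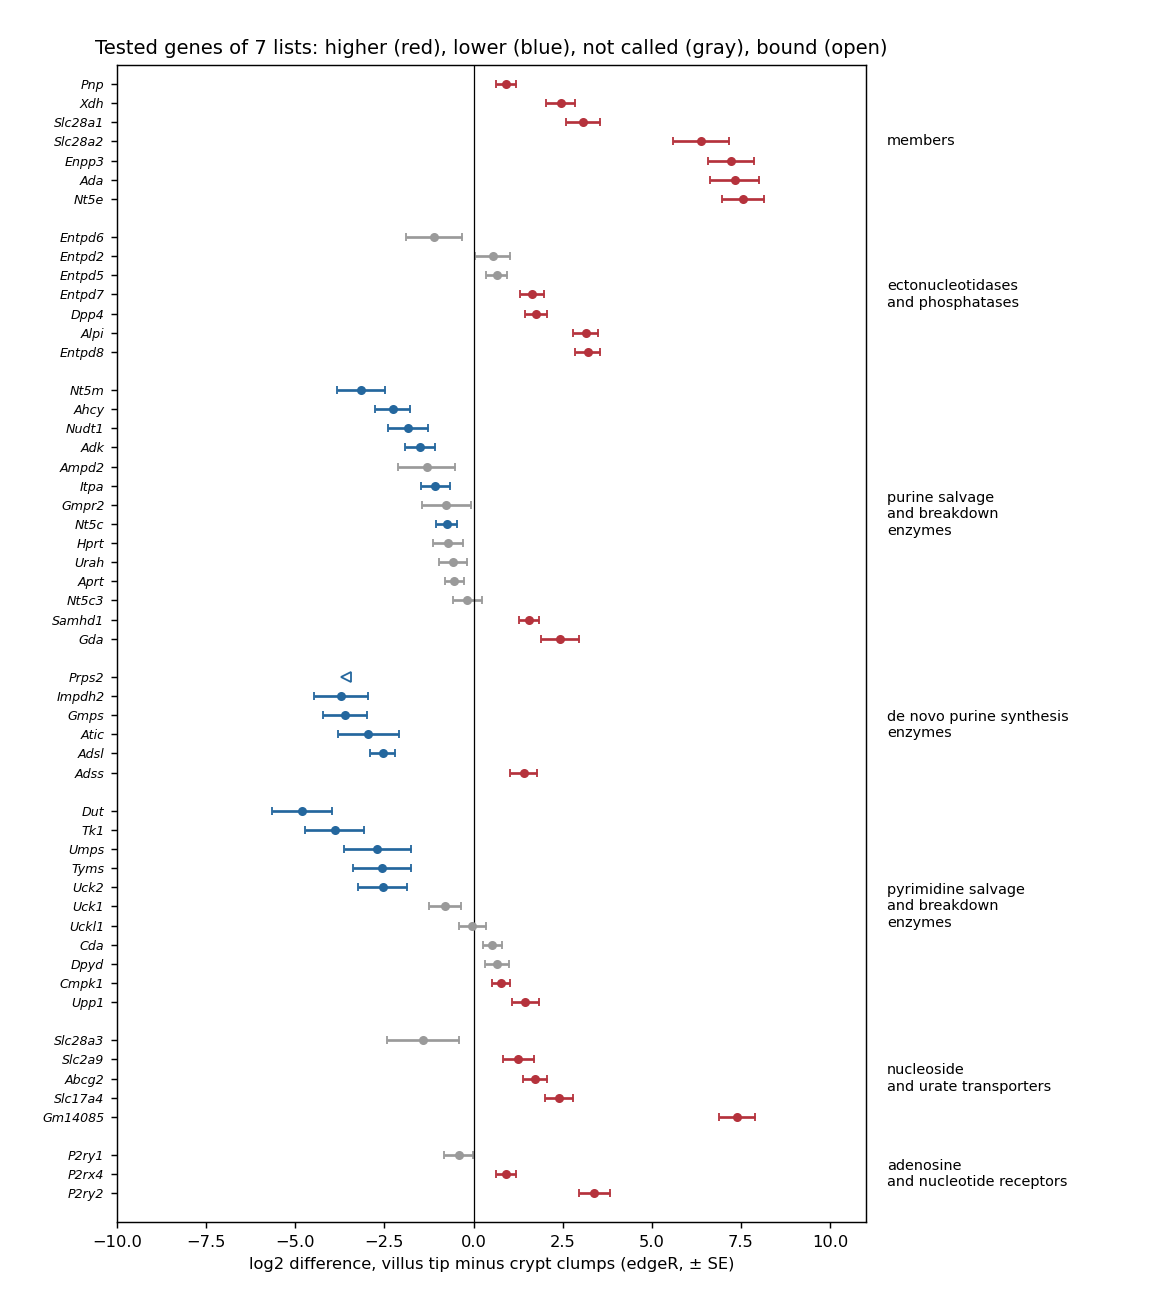
Log2 difference between villus tip and crypt clumps (edgeR, ± SE, 5 mice) for the tested genes of 7 lists, colored by the call, with an open triangle at the bound of Prps2, which had no UMI at the tip. All 7 members lie right of 0, at 0.90 to 7.55, and 5 of the 6 de novo purine synthesis enzymes lie left of it.

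Larger clumps and pairs were compared over sums per mouse, zone and DNA content, with zone as a covariate, to ask whether clump size moves with these genes. No gene of 4237 tested was called by edgeR (0%), with 495 genes at an unadjusted p under 0.05, 56 called by DESeq2 and 17 called with mouse as a block. For the 5 members tested, the log2 difference of larger clumps from pairs was -0.21 ± 0.50 (SE) for Ada, -0.47 ± 0.49 for Slc28a2, -0.41 ± 0.41 for Enpp3, -0.39 ± 0.35 for Xdh and 0.26 ± 0.33 for Pnp, with adjusted p between 0.711 and 0.925. With mouse as a block the direction of Ada, Slc28a2, Enpp3 and Xdh turned. Nt5e and Slc28a1 were too low to be tested.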

How the data were processed

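The authors deposited 2 tables of raw UMI counts per gene and well, made per the methods with zUMIs and STAR on GRCm38, after base calling with bcl2fastq 2.15.0.4 (submitters' processing notes). The values are not normalized, and empty wells are not named in the tables, so no background was subtracted.

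The 7 genes and the gene lists were chosen with earlier results of these data known. A clump was zoned if its well held over 500 UMIs and no fewer than 200 genes, with mitochondrial genes at 30% or less (6004 of 15626 wells, then 5883 after 2% with the fewest landmark UMIs were dropped). A clump took the zone whose landmark list best correlated with its scaled landmark levels. Single cells were kept at 150 to 1500 genes, 200 to 7000 UMIs and a mitochondrial share up to 40%, clustered with scanpy 1.11.5 (2000 variable genes, 25 components, resolution 0.1) and named from fixed markers. Doublets were not called, beyond the upper limits on UMIs and genes. The 384 well barcodes are shared by plates by design.

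Counts were summed per mouse, which is the replicate, with at least 5 clumps or cells per sum, and tested with edgeR 4.0.16 (TMM, filterByExpr, quasi-likelihood test, 2-sided, Benjamini-Hochberg over all genes tested, threshold 0.05, R 4.3.3). An SE is the log2 difference divided by the square root of F. Depth limits precision. Counts were also simulated with 1 dispersion fixed for all genes, not estimated from these data. For tip against crypt over 7395 genes, 78% of 4-fold and 8% of 2-fold changes were then recovered. For enteroendocrine-like against enterocyte-like cells 34% and 3% were recovered. These shares depend on that setting and do not measure the power of the comparisons. Sums of 1 mouse carry 1 mouse number in the labels, which does not settle whether the 3-month and 4-month single-cell plates of mouse 2 are 1 animal. Deviations from group means correlated at 0.183 to 0.592 within a mouse over zones (median -0.13 between mice), at 0.239 to 0.557 for tip and lower enterocytes, and at -0.11 to 0.593 over cell types, so the fit with mouse as a block was run beside the fit without it. Other alternatives were DESeq2 1.42.0, its size factors, no filter, leaving out each mouse, pairs alone, deeper clumps, thinning, zones by 3 genes, 7 bins and naming by marker sums, and, chosen after seeing the data, single cells without the 4-month plates (91 cells).

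Beyond the 7 genes and Gm14085, named genes were the up to 3 per list with the largest called tip to crypt change of 1 direction in every mouse, and the 3 genes most correlated with each of the 7 on log2(CPM + 5) with a mean of at least 20 CPM. Others named with values are markers, apart from Adora2b, Adora1 and Slc29a1 in the last section. Cell types and zones were rebuilt here, since no annotation of cells was used.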

Additional observations from a re-analysis of the deposited data

Results flagged for a closer look

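Of 70 groups of 4 or 5 mice examined for a mouse far from the others, 13 were picked out. Chance picks about 1 in 20 groups of continuous values, a rate that does not apply to the 5 of these 13 in which all other mice were at 0, so no excess over chance is read from the count. In clumps, mid-villus Gm14085 of mouse 3 stood at 9.27 CPM, with the other mice at most at 2.47 CPM. In single cells, Ada in the histone-led cluster of mouse 1 stood at 1671 CPM, with the others at most at 323 CPM, and Enpp3 in tip enterocyte-like cells of mouse 4 at 661 CPM, with the others at most at 394 CPM. Slc28a1 in tip enterocyte-like cells was low in mouse 1, at 13.9 CPM from 27 UMIs.

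In goblet-like cells, Xdh was at 87.8 CPM and Pnp at 58.5 CPM in mouse 1, from 9 and 6 UMIs, Slc28a2 at 42.5 CPM in mouse 4 from 1 UMI, and Gm14085 and Slc28a1 each at 4.99 CPM in mouse 3 from 1 UMI. In enteroendocrine-like cells, Enpp3 was at 37.7 CPM in mouse 1 from 1 UMI, Xdh at 11.2 CPM in mouse 2 from 5 UMIs, and Gm14085 and Slc28a1 each at 4.47 CPM in mouse 2 from 2 UMIs.

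Clumps of mouse 6, sorted above 2n and used in no comparison, were placed by the same landmarks, with 146 crypt and 70 tip clumps. Tip levels were 4057 CPM for Ada (exact Poisson interval 3730 to 4405), 914 for Slc28a2, 514 for Enpp3, 299.98 for Gm14085, 257 for Pnp, 229 for Xdh and 136 for Nt5e. Crypt levels in the same mouse were 32.0 CPM for Ada, 7.10 for Slc28a2, 5.92 for Enpp3, 2.37 for Gm14085, 206 for Pnp and 58.0 for Xdh, and Nt5e had no UMI. Slc28a1 stood at 15.4, 38.6 and 7.14 CPM from crypt to tip, the last from 1 UMI. These are 1 mouse, so there is no test.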

How the results depend on the processing

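Over the alternatives run, the 7 genes and Gm14085 kept their direction between tip and crypt throughout, and 1 of 102 values lost its call (Pnp in pairs alone). The counts of genes called moved more. Between tip and crypt (3949) they were 2371 in pairs alone, 1437 with thinned clumps and 2507 to 4114 with a mouse left out (lowest without mouse 3). Between mid-villus and crypt (2951) they were 1470, 1107 and 1747 to 3127 (lowest without mouse 3). Between tip and mid-villus (976) they were 526 without the filter, 356 in pairs, 248 thinned, 2072 with the replicate block, and 349 to 1106 with a mouse left out (356, 363 and 349 without mouse 1, 2 and 3). Between tip and lower enterocyte-like cells (1626) they were 2460 without the filter and 896 to 1977 (1002 without mouse 2, 896 without mouse 4).

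Against enterocyte-like cells, counts without the filter and with cells named by their highest marker sum were 3224 and 1754 for enteroendocrine-like (1041; 333 to 1548 with a mouse left out), 1497 and 1118 for goblet-like (666; 236 to 989), 6145 and 3371 for immune-like (2001; 636 to 3034, highest without mouse 1), and 2121 and 1342 for tuft-like cells (796; 209 to 1185). For the histone-led cluster the count without the filter was 1502 (635; 93 to 1462, highest without mouse 1, 245 without mouse 3, and 1236 with the replicate block). With a mouse left out, the lowest count came without mouse 2 in all 5 types. Naming by highest marker sum gave 113 for its stem and dividing group. That group held only 3 of the 101 cells of the histone-led cluster, so 113 is not a count for the cluster. Larger clumps and pairs gave 56 genes by DESeq2, 91 without the filter, 17 with the replicate block and 0 to 14 with a mouse left out, against 0.

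Directions that turned were all of values without a call: Slc28a2 between mid-villus and crypt (-0.25 by DESeq2, -0.051 with its size factors, -1.22 to 0.35 with a mouse left out, lowest without mouse 3), Gm14085 there (-1.03 to 0.97, lowest without mouse 3), Slc28a1 between tip and mid-villus (0.51 with zones by 3 genes), Nt5e in enteroendocrine-like cells (-0.36 without the filter, -0.22 by marker sum, -0.16 without the 4-month plates) and in immune-like cells (0.40 with the replicate block), and larger clumps against pairs with the replicate block (Ada 0.16, Slc28a2 0.085, Xdh 0.13, Enpp3 0.35) or with a mouse left out (Ada -1.38 to 0.22, highest without mouse 1, Enpp3 -1.07 to 0.083, highest without mouse 2). Beyond the values given with mouse as a block beside their results (Xdh in tip enterocyte-like cells, 5 genes in the histone-led cluster), the block changed no other call of the 7 genes. Of the genes called between tip and crypt, 31.6% were higher with size factors against 37.1%, and moved the median gene from -0.29 to -0.46. Thinning moved the center of mass of Ada to 88.7% and of Xdh to 69.0% of the axis. The causes were not tested. Depth limits the tip of mouse 4 (25 clumps), Slc28a1 and Nt5e below the tip.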

Other observations

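Adenosine receptors were sparse in the clumps and were not tested. Adora2b, the low-affinity adenosine receptor, was read out at 5.86 to 14.7 CPM in the mid-villus of the 5 mice (58 UMIs), against 0 to 1.26 CPM in the crypt (15 UMIs) and 0 to 2.44 CPM at the tip (2 UMIs). The mid-villus values did not overlap those of either other zone, and the share of all genes of which this holds was not counted. Adora1 was at 0 to 3.63 CPM in the crypt and had no UMI at the tip, and the equilibrative nucleoside transporter Slc29a1 was at 1.15 to 14.6 CPM in the crypt and at 0 to 1.26 CPM in the mid-villus. These genes were named after their values were seen.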
